A study of Homo sapiens with 6 samples.

Results

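The genes of lactate production, transport and sensing were followed in H3122 cells and in a crizotinib-resistant derivative. They are the 9 genes LDHA, LDHB, LDHD, SLC16A1, SLC16A3, SLC16A7, BSG, EMB and HCAR1, taken by name from the 51537 genes of the deposited table. H3122 is an established human lung cancer line described as carrying the EML4-ALK fusion, and crizotinib inhibits the ALK and MET kinases. The 3 control libraries came from H3122 cells. The 3 resistant libraries came from the same line after stepwise exposure to crizotinib rising from 0.1 to 10 µM. The labels say that the medium was kept effective with the drug while resistance was raised, and do not say whether drug was present at harvest. They name neither clones nor separate cultures, so a p-value here reflects only how far these libraries scatter, and that scatter may be technical.

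Lactate is made from pyruvate in the cytosol by lactate dehydrogenase, a tetramer of LDHA and LDHB subunits, and the reaction returns NADH to NAD+ so that glycolysis can go on. LDHA-rich enzyme is usually described as favouring lactate formation and LDHB-rich enzyme as favouring its use. LDHD is a separate mitochondrial enzyme that oxidizes D-lactate. Lactate crosses the plasma membrane with a proton through the monocarboxylate transporters MCT1 (SLC16A1), MCT2 (SLC16A7) and MCT4 (SLC16A3). MCT4 is known for export from glycolytic cells and MCT2 for high-affinity uptake. The transporters need a chaperone to reach the membrane, basigin (BSG) for MCT1 and MCT4 and embigin (EMB) mainly for MCT2. HCAR1, also called GPR81, is a Gi-coupled receptor that binds extracellular lactate and lowers cyclic AMP.

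Depth was estimated at 29856927 to 36695580 reads per library. Levels are in TPM, which scales reads by gene length and library total, and 15485 to 16272 genes per library were at 1 TPM or more. The libraries carried an epithelial profile: the sum of 9 epithelial and lung markers was 17098 to 17652 TPM in control and 17791 to 19088 TPM in resistant libraries, mostly from the keratin genes KRT8, KRT18, KRT19 and KRT7. The lung markers NKX2-1 and SFTPB stayed under 1 TPM in all 6 libraries, and the lung marker NAPSA was at 1.10 to 2.05 TPM. All 8 fibroblast markers were under 1 TPM in every library, with LUM and DCN at 0. The 8 immune markers summed to 8.94 to 9.40 TPM in control and 11.0 to 13.0 TPM in resistant libraries, and PTPRC, which marks all leukocytes, did not exceed 0.313 TPM. The 6 endothelial markers summed to 8.13 to 8.94 and 5.85 to 7.47 TPM, with KDR at 0. The part of these cells in the results below was not tested. ALK, the kinase gene of the fusion, was also under 1 TPM, at 0.154 to 0.320 TPM over both groups, so these gene levels give no support for the fusion that the line's name implies. EML4, its partner gene, was at 40.5 to 46.0 TPM in control and at 24.3 to 32.2 TPM in resistant libraries. The line and the groups are called here as the labels name them.

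The RefSeq promoter table of GRCh38.p14 held windows for 5 of the 9 genes, at 12 start sites. They are LDHA, LDHB, SLC16A3, SLC16A7 and BSG. The 250 bases before each start were searched for ACGTG on both strands. ACGTG is a form of the core of the hypoxia response element and is found in 18.5% of 35114 such windows genome-wide. The other form, GCGTG, was not searched for, so a window without a match can still hold it. The palindrome CACGTG, the E-box, holds ACGTG on each strand, so every E-box is also a match to the shorter motif, and 6.35% of windows hold it. Of the 12 windows, 3 had a match, and these are shown with the window of LDHB, which had none. The windows shown thus follow the matches, with LDHB added as a gene without one. LDHA, LDHB and SLC16A3 rose in the resistant libraries and BSG did not pass the test. SLC16A7 also rose, had no match in its windows and is not shown. The other windows of LDHA, SLC16A3 and BSG had no match either. Capitals mark the matches, and a match is a description of the letters only.
LDHA, first start, plus strand, chr11:18394313-18394562: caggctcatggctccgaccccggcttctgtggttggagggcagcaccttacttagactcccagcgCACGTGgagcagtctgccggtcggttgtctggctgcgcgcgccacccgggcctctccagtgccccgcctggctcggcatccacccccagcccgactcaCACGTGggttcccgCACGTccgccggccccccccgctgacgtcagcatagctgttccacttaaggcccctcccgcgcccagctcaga
SLC16A3, second of 5 starts, plus strand, chr17:82228792-82229041: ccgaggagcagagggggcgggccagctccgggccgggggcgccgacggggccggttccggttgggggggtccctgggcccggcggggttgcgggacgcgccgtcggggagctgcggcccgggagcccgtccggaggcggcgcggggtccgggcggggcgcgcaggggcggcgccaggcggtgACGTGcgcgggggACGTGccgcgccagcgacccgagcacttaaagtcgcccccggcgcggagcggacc
BSG, second of 2 starts, plus strand, chr19:572346-572595: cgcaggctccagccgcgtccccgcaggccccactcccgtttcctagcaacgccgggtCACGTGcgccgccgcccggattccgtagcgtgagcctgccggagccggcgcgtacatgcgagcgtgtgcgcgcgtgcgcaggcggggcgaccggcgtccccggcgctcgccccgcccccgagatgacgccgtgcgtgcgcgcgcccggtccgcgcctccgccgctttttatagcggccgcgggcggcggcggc
LDHB, single start, minus strand, chr12:21657843-21658092: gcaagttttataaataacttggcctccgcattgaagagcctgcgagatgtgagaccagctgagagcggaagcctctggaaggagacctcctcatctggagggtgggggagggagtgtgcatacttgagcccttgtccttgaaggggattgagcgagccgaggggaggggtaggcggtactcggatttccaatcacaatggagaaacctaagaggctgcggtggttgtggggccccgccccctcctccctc
The LDHA window held 3 marked stretches, beginning 185, 87 and 73 bases before the start, of which 2 were the E-box palindrome. The SLC16A3 window held 2, beginning 68 and 55 bases before the start, and the BSG window held 1 palindrome 193 bases before it. The table is of whole genes, so which start was used in these cells was not measured.

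Of the 9 genes, 8 passed the filter of at least 1 TPM in at least 3 libraries and were tested, and EMB did not. In the resistant libraries LDHA, LDHB, LDHD, SLC16A3 and SLC16A7 rose and HCAR1 fell, while SLC16A1 and BSG did not pass the test. The test was limma on log2(TPM + 1) with Benjamini-Hochberg adjustment over all 16077 tested genes and a threshold of 0.05. That is 5 higher and 1 lower of 8, in a comparison that called 24.0% of all tested genes higher and 24.7% lower, 48.6% in all. In such bulk RNA, fewer cells expressing a gene and less of its RNA per cell cannot be told apart. The median log2 change was 0.37 over the 8 and 0.00 over all tested genes. HCAR1 passed the filter only through the control libraries, so its presence among the tested genes already implied a difference. The libraries of the groups did not overlap for 7 of the 8 genes, against 57.9% of all tested genes.

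**Figure D1:**
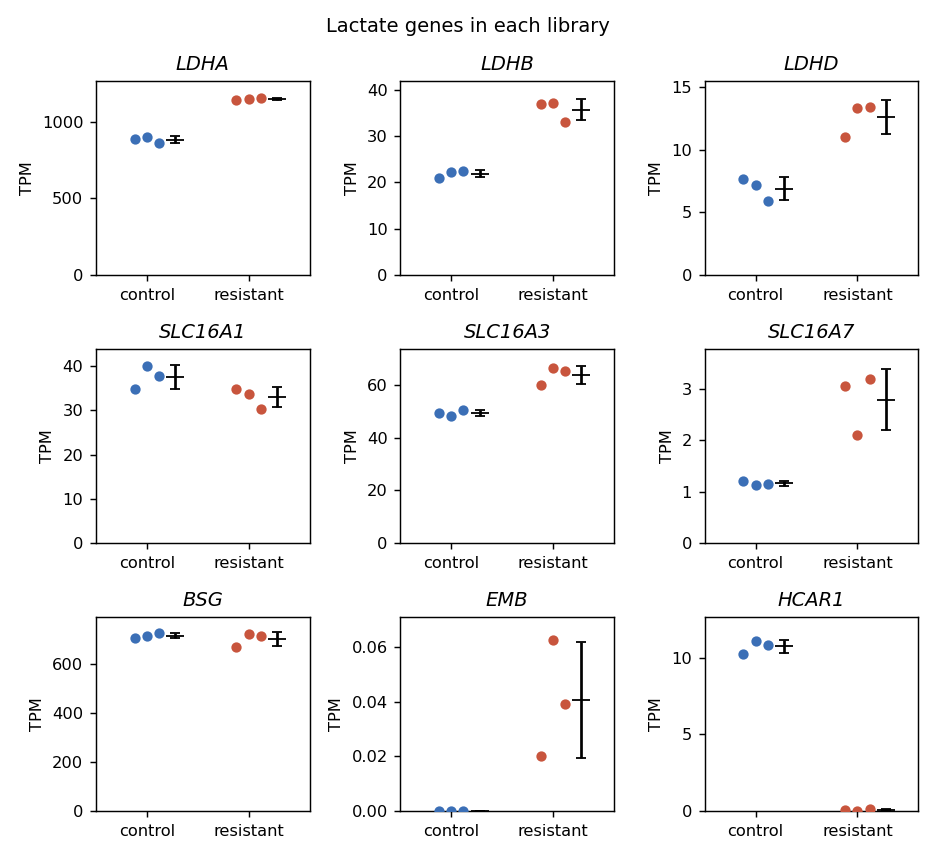
TPM of the 9 lactate genes in each of the 3 control and 3 resistant libraries, with a separate linear axis from 0 for each gene; points are libraries and the bar beside them is the mean ± SD. The resistant libraries lie above the control libraries for LDHA, LDHB, LDHD, SLC16A3 and SLC16A7, HCAR1 drops to near 0, and BSG overlaps.

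LDHA was by far the most abundant lactate dehydrogenase gene. LDHA (ENSG00000134333, GENCODE 29 on GRCh38, chromosome 11, 18394388 to 18408425, plus strand) was at 888, 901 and 862 TPM in control libraries 1 to 3 and at 1141, 1148 and 1156 TPM in resistant libraries 1 to 3. Every resistant library was above every control library, and the resistant libraries lay close to each other. The mean rose from 884 ± 20 to 1148 ± 7.59 TPM (SD, n = 3 each), 1.30 times, with a log2 change of 0.38 ± 0.03 (SE; limma adjusted p = 0.000104). LDHA ranked 109 to 119 of the 16077 tested genes by TPM in the control libraries and 76 to 81 in the resistant libraries. It rested on an estimated 47393 to 69557 reads per library. LDHA has processed pseudogenes that share its sequence, and how the authors' counting divided such reads is not given in the sources used here. The most abundant of them, LDHAP4, averaged 11.7 TPM in the controls against 15.1 TPM after resistance.

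LDHB, the subunit associated with lactate use, was present at a few percent of the LDHA level and rose further in proportion. LDHB (ENSG00000111716, chromosome 12, 21635342 to 21757857, minus strand) was at 21.0, 22.2 and 22.6 TPM in control libraries 1 to 3 and at 36.9, 37.0 and 33.1 TPM in resistant libraries 1 to 3. The groups were well apart. The mean went from 21.9 ± 0.837 to 35.7 ± 2.23 TPM, 1.63 times, a log2 change of 0.68 ± 0.06 (limma adjusted p = 0.000109).

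The balance of the subunits moved slightly toward LDHB. LDHB made up 2.31%, 2.41% and 2.55% of LDHA plus LDHB TPM in control libraries 1 to 3 and 3.13%, 3.13% and 2.78% in resistant libraries 1 to 3. The LDHA share was 97.6 ± 0.123% in control and 97.0 ± 0.199% in resistant libraries. The exact two-sided permutation p for that share was 0.1, the smallest that 3 against 3 can give. The ratio of LDHA to LDHB TPM was 40.3 ± 2.09 in control and 32.3 ± 2.29 in resistant libraries, and their sum went from 905 ± 19.7 to 1184 ± 5.79 TPM. LDHA transcripts thus outnumbered LDHB transcripts at least 30.9 times in every library.

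LDHD, the D-lactate dehydrogenase of mitochondria, was the least abundant of the enzymes. LDHD (ENSG00000166816, chromosome 16, 75111860 to 75116771, minus strand) was at 7.65, 7.15 and 5.89 TPM in control libraries 1 to 3 and at 11.0, 13.3 and 13.4 TPM in resistant libraries 1 to 3. The mean rose from 6.90 ± 0.904 to 12.6 ± 1.33 TPM, 1.82 times, a log2 change of 0.78 ± 0.11 (limma adjusted p = 0.00101). It rested on an estimated 143 to 306 reads per library.

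**Figure D2:**
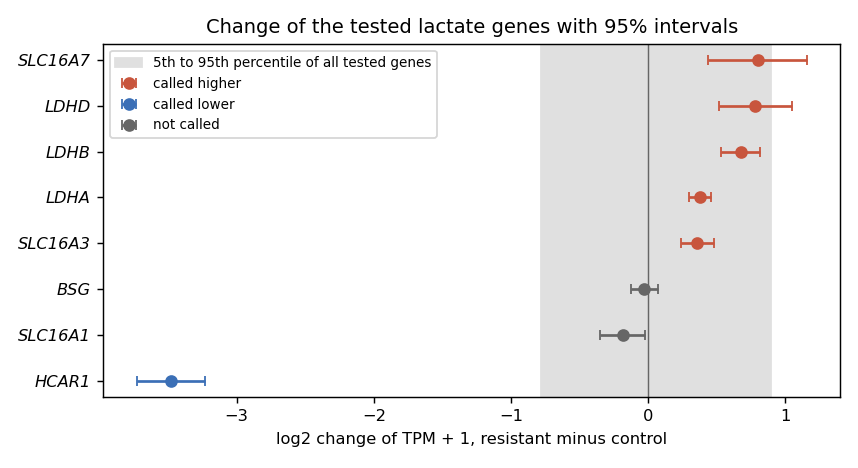
Log2 change of TPM + 1, resistant minus control, for the 8 tested lactate genes, as points with 95% intervals from limma; the grey band spans the 5th to 95th percentile of all 16077 tested genes, -0.78 to 0.90. Within that band lie 7 of the 8 points, and HCAR1 lies far below it.

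The 3 lactate transporters did not move alike. SLC16A3, which encodes the exporter MCT4 (ENSG00000141526, chromosome 17, 82228397 to 82261129, plus strand), was at 49.5, 48.2 and 50.6 TPM in control libraries 1 to 3 and at 59.9, 66.3 and 65.3 TPM in resistant libraries 1 to 3. All resistant libraries were above all control libraries. The mean rose from 49.4 ± 1.21 to 63.9 ± 3.44 TPM, 1.29 times, a log2 change of 0.36 ± 0.05 (limma adjusted p = 0.000956). CSNK1D overlaps SLC16A3 on the opposite strand, and whether strand was used in counting is not given in the sources used here. CSNK1D fell from 59.2 to 40.0 TPM (log2 -0.56), the direction opposite to that of SLC16A3.

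SLC16A1, which encodes MCT1, was the other main transporter. SLC16A1 (ENSG00000155380, chromosome 1, 112911847 to 112957013, minus strand) was at 34.8, 40.0 and 37.8 TPM in control libraries 1 to 3 and at 34.8, 33.7 and 30.4 TPM in resistant libraries 1 to 3. Resistant library 1 lay at 34.75 TPM, just under control library 1 at 34.82 TPM. The means were 37.5 ± 2.61 and 32.9 ± 2.26 TPM, and the log2 difference of -0.18 ± 0.07 did not pass the test (limma adjusted p = 0.0665). Its unadjusted 95% interval ran from -0.35 to -0.02. It passed with 5 of 13 alternative settings, among them median-ratio scaling (adjusted p = 0.0135) and leaving out control replicate 1 (adjusted p = 0.0329). The 19 tested genes within 1 Mb of SLC16A1 had a median log2 change of -0.30, and 10 of them fell and 0 rose. Over all tested genes, 24.7% were called lower and 24.0% higher.

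SLC16A7, which encodes the high-affinity transporter MCT2, was the scarcest transporter and increased most in proportion. SLC16A7 (ENSG00000118596, chromosome 12, 59596067 to 59789855, plus strand) was at 1.22, 1.12 and 1.14 TPM in control libraries 1 to 3 and at 3.06, 2.11 and 3.20 TPM in resistant libraries 1 to 3. Resistant library 2 was lower than the other two, and still above all controls. The mean rose from 1.16 ± 0.050 to 2.79 ± 0.593 TPM, 2.41 times, on an estimated 130 to 423 reads per library. The log2 change was 0.80 ± 0.15 on the log2(TPM + 1) scale (limma adjusted p = 0.00395), which understates low genes. On rebuilt reads, limma-voom gave 1.28 (adjusted p = 8.92e-05).

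Together the 3 transporters summed to 88.1 ± 2.22 TPM in the controls, against 99.6 ± 2.26 TPM after resistance. SLC16A3 made up 57.9%, 53.9% and 56.5% of that sum in control libraries 1 to 3 and 61.3%, 65.0% and 66.0% in resistant libraries 1 to 3. Its share was 56.1 ± 2.01% and 64.1 ± 2.48% (exact two-sided permutation p = 0.1, the smallest possible). The SLC16A1 share went the other way, 42.6 ± 2.09% in control and 33.1 ± 2.41% in resistant libraries. SLC16A7 held 1.32 ± 0.0907% and 2.81 ± 0.647%. The ratio of SLC16A3 to SLC16A1 TPM was 1.32 ± 0.111 in control and 1.95 ± 0.213 in resistant libraries, without overlap between the groups. These shares and ratios are of TPM, which depends on the gene length used, and are not counts of transcripts.

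**Figure D3:**
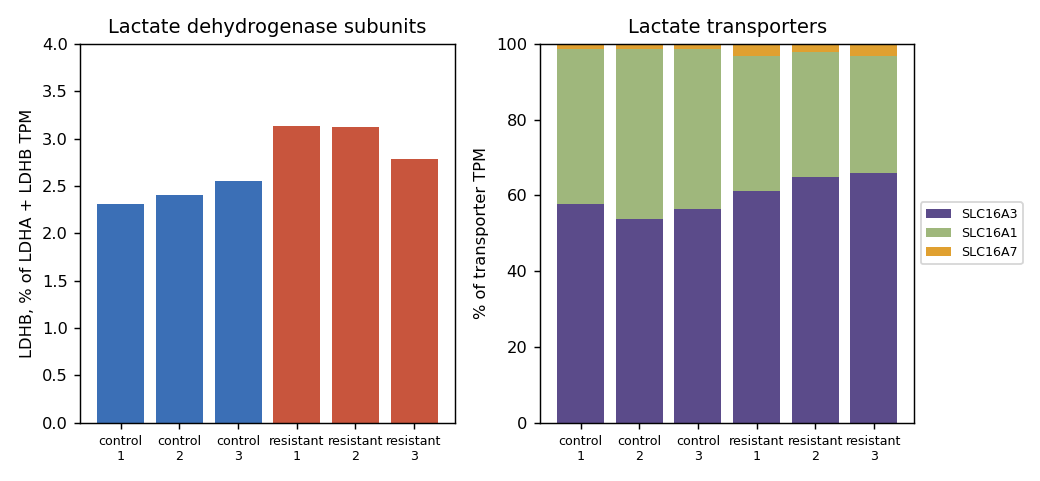
Left, LDHB as a percent of LDHA plus LDHB TPM in each library; right, the percent of transporter TPM from SLC16A3, SLC16A1 and SLC16A7 in each library, stacked to 100. LDHB stays under 4% in all 6 libraries, and the SLC16A3 share is above 60% in the 3 resistant libraries and below it in the 3 controls.

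BSG, the chaperone of MCT1 and MCT4, was abundant in both groups. BSG (ENSG00000172270, chromosome 19, 571277 to 583493, plus strand) was at 709, 716 and 728 TPM in control libraries 1 to 3 and at 673, 726 and 716 TPM in resistant libraries 1 to 3. The groups overlapped. The means were 718 ± 9.24 and 705 ± 28.3 TPM, and the log2 difference of -0.03 ± 0.04 did not pass the test (limma adjusted p = 0.620), with a 95% interval of -0.12 to 0.07. The ratio of BSG TPM to the summed TPM of the 3 transporters was 8.15 ± 0.135 in control libraries. It was 7.08 ± 0.180 in resistant libraries (exact two-sided permutation p = 0.1 on log2 ratios).

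EMB, the partner of MCT2, was at the limit of detection. EMB (ENSG00000170571, chromosome 5, 50396192 to 50443248, minus strand) was listed at 0 in all 3 control libraries and at 0.0202, 0.0629 and 0.0393 TPM in resistant libraries 1 to 3. These values correspond to 1, 3 and 2 estimated reads. A count of 0 allows up to 3 reads, or 0.0543 to 0.0673 TPM depending on the library, so a difference was not detectable. With no filter on low values, the limma adjusted p was 0.269.

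HCAR1, the lactate receptor, showed the largest change of the 8 tested genes. HCAR1 (ENSG00000196917, chromosome 12, 122726076 to 122730843, minus strand) was at 10.3, 11.1 and 10.9 TPM in control libraries 1 to 3 and at 0.0436, 0.0226 and 0.106 TPM in resistant libraries 1 to 3. Controls were tightly grouped and the resistant libraries were all near the floor. An exon length of 4878 bases turned all 6 values into whole reads, 456, 460 and 557 in control and 2, 1 and 5 in resistant libraries. The mean fell from 10.8 ± 0.434 to 0.0573 ± 0.0433 TPM, with a log2 change of -3.48 ± 0.11 (limma adjusted p = 1.34e-06). Per read sequenced, the 1473 control and 8 resistant reads gave a ratio of 180, with an exact 95% interval of 91.2 to 418 that covers counting error only. The log2 value depends on the offset, and was -6.14 with a pseudocount of 0.1 and -7.44 with limma-voom on rebuilt reads.

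No other tested gene within 1 Mb changed by as much as HCAR1. HCAR2 and HCAR3, which encode the receptors for hydroxybutyrate and hydroxyoctanoate, lie beside it in the same cluster on chromosome 12. HCAR2 was at 27.8 ± 2.64 and 34.2 ± 3.38 TPM and was called higher (log2 0.29, limma adjusted p = 0.0306), a call lost in 5 of 13 alternative settings, among them without control replicate 1 or 3 or resistant replicate 2 or 3 (adjusted p = 0.0640 to 0.0888). HCAR3 was at 5.09 ± 0.347 and 3.79 ± 0.152 TPM and was called lower (log2 -0.35, limma adjusted p = 0.0152), a call lost without control replicate 2 (adjusted p = 0.0614) and also without resistant replicate 3 (adjusted p = 0.0527). HCAR2 and HCAR3 are near-identical copies, so both values are uncertain. DENR, the nearest tested gene on the other side, was at 95.4 and 93.2 TPM (log2 -0.03). Of 43 other tested genes within 1 Mb, 6 rose and 14 fell, beside 24.0% and 24.7% of all tested genes. Their median log2 change was -0.05, and their changes ran from -0.65 to 1.0.

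**Figure D4:**
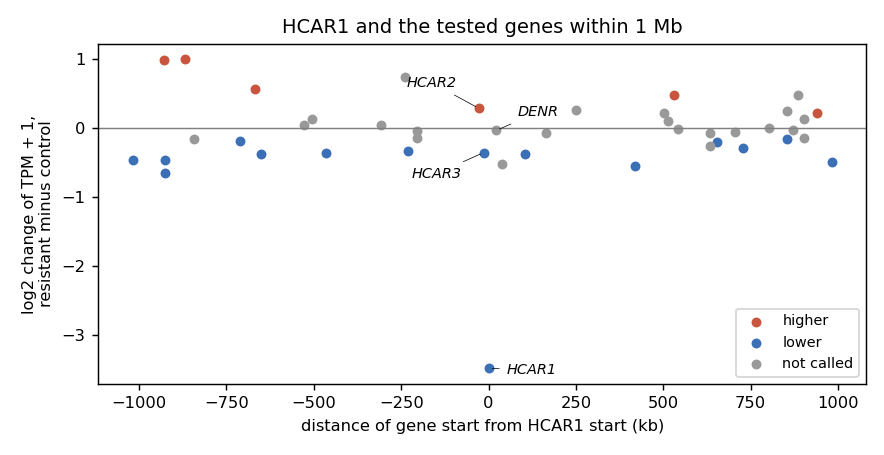
Log2 change of TPM + 1, resistant minus control, against the distance of each gene's start from the HCAR1 start in kb, for HCAR1 and the 43 other tested genes within 1 Mb. HCAR1 sits at -3.48 while the others stay between -0.65 and 1.0.

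The changes of the other tested genes are given beside those of their surroundings, with no test of a difference. LDHB (log2 0.68) and SLC16A7 (0.80) share chromosome 12 with HCAR1, where the median over 830 other tested genes was -0.04. The 7 tested genes within 1 Mb of LDHB had a median of -0.07, and their highest value was 0.26. Around LDHD (0.78), 25 tested genes had a median of 0.01 and ran from -0.76 to 1.02. Around LDHA (0.38), 21 had a median of 0.14 and ran from -0.34 to 3.75. Of these, 7 were called higher and 2 lower, beside 24.0% and 24.7% of all tested genes. The 2 called lower were its nearest tested neighbours, GTF2H1 (-0.34) and TSG101 (-0.15). The call of TSG101 was lost in 6 of 13 alternative settings, among them without replicate 2 or 3 of either group (adjusted p = 0.0770 to 0.119). Around SLC16A3 (0.36), 72 tested genes had a median of 0.05 and ran from -1.48 to 1.29, and the median over its chromosome was 0.15. BSG (-0.03) lay close to the median of the 56 around it, 0.01. LDHA, LDHD, SLC16A1, SLC16A3 and BSG thus lay within the range of the genes around them.

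For 3 of the genes, the tested genes with the most similar profile were found by the root mean square difference of log2(TPM + 1) over the 6 libraries, after centring each gene on its mean. For HCAR1 they were FBP1, the gluconeogenic fructose bisphosphatase (difference 0.138), SLC1A6, a glutamate transporter (0.155), and TSPYL5 (0.180). FBP1 fell from 83.2 ± 2.56 to 5.45 ± 0.394 TPM and SLC1A6 from 8.47 ± 0.0477 to 0.0461 ± 0.0150 TPM. TSPYL5 went from 13.1 ± 0.285 TPM to a listed 0 in all 3 resistant libraries. The offset of 1 compresses values near 0, so likeness to HCAR1 is stated for that scale only. HCAR1 averaged 0.0573 TPM in the resistant libraries, far below FBP1. With a pseudocount of 0.1 the log2 change of HCAR1 was -6.14. That of FBP1 was no lower than -3.91 in any of 13 alternative settings. For LDHA they were CES2 (0.0163), a carboxylesterase, CTNNBIP1 (0.0195), an inhibitor of beta-catenin, and AKR1B1 (0.0237), an aldose reductase. For LDHB they were PYGL (0.0264), the liver-type glycogen phosphorylase, CMTM7 (0.0279) and CPOX (0.0294), an enzyme of heme synthesis. PYGL rose from 56.1 ± 1.72 to 90.9 ± 3.82 TPM. With 2 groups of 3 libraries such likeness mostly reflects a similar difference between the groups.

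Around these 9 genes, 12 lists held 101 other genes of lactate and pyruvate handling, of which 85 were tested, 22 rose and 28 fell. That is 58.8% called, beside 48.6% of all tested genes, with a median log2 change of -0.06. The counts of each list below stand beside 24.0% higher and 24.7% lower over all tested genes, and no list was tested as a set. The named genes below are those called whose higher group averaged 5 TPM or more, up to 4 a list by the size of their change, or else the most abundant one.

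Genes that handle protons held the largest increases. Of 4 tested, 2 rose and 0 fell, with a median log2 change of 0.89. CA9, a cell-surface carbonic anhydrase known as a hypoxia target, rose from 6.72 ± 0.340 to 26.9 ± 1.80 TPM (log2 1.85 ± 0.07, limma adjusted p = 3.61e-06). CA2, a cytosolic carbonic anhydrase, rose from 6.75 ± 0.684 to 20 ± 2.80 TPM (log2 1.43 ± 0.11). SLC4A7, a sodium bicarbonate cotransporter, was at 7.13 and 9.31 TPM and did not pass the test.

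Regulators of lactate genes went both ways, with 5 of 12 higher and 3 lower (median log2 -0.04). HIF1A, the hypoxia-inducible subunit, rose from 64.2 ± 8.44 to 120.6 ± 16.1 TPM (log2 0.90 ± 0.12, limma adjusted p = 0.00106). EGLN1, the prolyl hydroxylase that marks HIF1A protein for degradation, fell from 31.1 ± 1.28 to 18.7 ± 0.474 TPM (log2 -0.70 ± 0.05). STAT3 (log2 0.40) and SNAI1 (0.41), both transcription factors, rose by less. HIF1A protein was not measured.

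Partners of basigin and MCTs at the membrane rose in 4 of 6 cases and fell in 0 (median log2 0.39). The amino acid exchanger subunits SLC7A5 and SLC3A2 rose, SLC7A5 from 157 ± 7.18 to 258 ± 23.8 TPM and SLC3A2 from 136 ± 1.12 to 183 ± 13.0 TPM. CD44, a hyaluronan receptor, rose from 157 ± 5.17 to 211 ± 11.4 TPM, and PPIB, a cyclophilin, from 98.1 ± 5.77 to 125 ± 4.30 TPM. PPIA, the other cyclophilin of the list and its most abundant gene, was at 854 and 832 TPM and did not pass the test (log2 -0.04). NPTN, the basigin relative neuroplastin, was at 68.8 and 61.0 TPM and did not pass the test.

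The other carriers of the SLC16 family were mixed: of 11, 6 were tested, 1 rose and 3 fell (median log2 -0.17). SLC16A13 rose from 30.3 ± 3.06 to 46.9 ± 4.46 TPM, while SLC16A4 fell from 33.1 ± 3.04 to 20 ± 1.24 TPM. SLC16A5 fell from 59.2 ± 1.73 to 53.5 ± 1.39 TPM, a call lost in 8 of 13 alternative settings, among them without control replicate 1 or 3 or resistant replicate 2 or 3 (adjusted p = 0.0547 to 0.110). The sodium-coupled lactate transporters SLC5A8 and SLC5A12 were under 1 TPM in all 6 libraries.

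Genes for the supply and fates of pyruvate went both ways, with 3 of 17 tested genes higher and 6 lower (median log2 -0.07). PDK1, a kinase that shuts pyruvate dehydrogenase, rose from 9.31 ± 0.567 to 13.6 ± 1.40 TPM, and PDK3 of the same family fell from 44.6 ± 2.37 to 31.1 ± 1.48 TPM. PDP2, a phosphatase that reopens the complex, rose from 18.0 ± 0.335 to 24.8 ± 0.610 TPM. PC, which carboxylates pyruvate to oxaloacetate, fell from 35.7 ± 2.09 to 24.1 ± 0.961 TPM. PKM, which forms pyruvate, was at 734 and 784 TPM and did not pass the test (log2 0.09).

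Shuttles that reoxidize cytosolic NADH beside lactate dehydrogenase had 2 of 9 tested genes higher and 3 lower (median log2 -0.06). GPD1L, related to glycerol-3-phosphate dehydrogenase, fell from 41.9 ± 3.20 to 16.7 ± 1.19 TPM (log2 -1.28 ± 0.08, limma adjusted p = 1.82e-05). Within the malate-aspartate shuttle, GOT1 rose from 66.3 ± 3.07 to 97.4 ± 5.64 TPM and SLC25A11 from 79.2 ± 4.36 to 106.5 ± 3.99 TPM. The mitochondrial malate dehydrogenase MDH2 fell from 381 ± 11.9 to 285 ± 10.1 TPM.

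Signalling genes that can act behind HCAR1 had 1 of 12 tested genes higher and 6 lower (median log2 -0.14). PRKACB, a catalytic subunit of protein kinase A, fell from 14.9 ± 1.13 to 8.65 ± 0.540 TPM, GNAI3, an inhibitory G protein subunit, from 118 ± 9.19 to 80.5 ± 2.54 TPM, and ARRB1, a beta-arrestin, from 48.3 ± 1.27 to 37.3 ± 2.48 TPM. ADCY7, an adenylyl cyclase, rose from 12.8 ± 0.306 to 18.5 ± 0.944 TPM.

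Enzymes linked to lysine lactylation, the attachment of lactyl groups to proteins, had 2 of 11 tested genes higher and 5 lower (median log2 -0.09). AARS, the alanyl-tRNA synthetase reported to attach lactate, rose from 159 ± 8.45 to 252.5 ± 7.49 TPM. The acetyltransferases CREBBP and EP300 fell, CREBBP from 32.0 ± 1.64 to 23.5 ± 1.99 TPM and EP300 from 43.3 ± 2.49 to 35.1 ± 1.07 TPM, and the deacetylase SIRT1 from 15.9 ± 2.08 to 8.90 ± 0.462 TPM.

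Of 4 relatives of the dehydrogenases, LDHC, LDHAL6A and LDHAL6B were under 1 TPM in all 6 libraries, and UEVLD, at 27.5 and 24.3 TPM, did not pass the test. Among 5 genes of methylglyoxal and related 2-oxoacid handling, which includes the route that yields D-lactate, 1 rose and 1 fell (median log2 0.09). GLO1 and HAGH, the glyoxalases of that route, did not pass the test at 134 and 144 TPM and at 31.1 and 31.3 TPM. PNKD fell from 127 ± 2.38 to 103 ± 3.56 TPM. HAGHL rose from 21.2 ± 0.994 to 24.1 ± 0.272 TPM, a call lost in 7 of 13 alternative settings, among them without replicate 2 or 3 of either group (adjusted p = 0.0753 to 0.103).

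**Figure D5:**
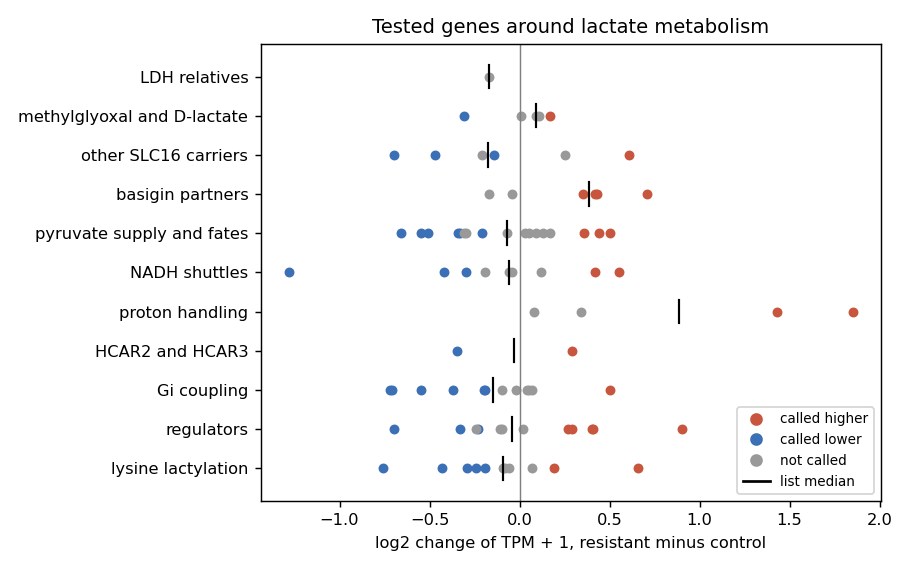
Log2 change of TPM + 1, resistant minus control, of the tested genes in 11 lists around lactate metabolism (the 2 sodium-coupled transporters were not tested); each point is a gene, coloured by its call, and the black line is the list median. CA9 and CA2 lie farthest to the right at 1.85 and 1.43, and GPD1L farthest to the left at -1.28.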

How the data were processed

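Poly(A) RNA of 3 control and 3 resistant libraries was sequenced with a stranded kit, per the labels' protocols. The authors deposited 1 table of TPM for 51537 genes, each column summing to 1000000. Per the submitters' processing notes, HISAT2 was among the tools. Which version was run, how genes were counted, with or without strand, and on which build, is not given in the sources used here. The 9 genes and all lists were chosen with earlier results of these data known.

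The 16077 genes that reached 1 TPM in 3 or more libraries were tested. limma 3.58.1 (R 4.3.3, statmod 1.5.0) fitted log2(TPM + 1) on the group in all 6 libraries, with trended and robust empirical Bayes moderation, two-sided tests, Benjamini-Hochberg adjustment and a threshold of 0.05. The planned count test gave way to limma because the table holds TPM. Shares and ratios were compared by exact permutation tests (scipy 1.17.1).

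TPM keeps no depth. Reads were estimated by multiplying TPM by GENCODE 29 exon length on GRCh38. The product was divided by its most frequent value above 0 in each library, taken as a single read. For the whole reads of HCAR1 and their ratio, a length of 4878 bases was used in place of the GENCODE 29 length. Of values above 0 and up to 100 reads, 77.6% to 78.4% came out whole within 0.01. All 51537 identifiers matched GENCODE 29, and coordinates are 1-based from it.  Genes named beyond the 9 were those of each of the 12 lists called with at least 5 TPM (up to 4, largest change first) or its most abundant gene, the nearest tested gene on each side, and the 3 most similar profiles of HCAR1, LDHA and LDHB. The cell type markers were named outside this rule. Called markers that the rule would have named were CDH1 (log2 0.36), KRT19 (0.34) and CSF1R (0.59), higher, and EPCAM (-0.36) and CDH5 (-0.89), lower. A few list members that did not pass the test, and NKX2-1, SFTPB, NAPSA, PTPRC and the overlapping and pseudogene features, were named after their values were seen. The alanyl-tRNA synthetase gene was matched by identifier under its older symbol.

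Between libraries of a group, chi-square per gene on estimated reads had means of 4.05 to 11.9 and medians of 1.14 to 2.80, where counting error alone gives a mean of about 1. No libraries were merged. The spread may still come from library preparation, so this does not show that they are separate cultures. Alternatives were a pseudocount of 0.1, no filter, a filter at 5 TPM, median-ratio scaling, leaving out the 1% most abundant genes, a replicate block and leaving out each library. limma-voom on estimated reads was added after seeing the data.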

Additional observations from a re-analysis of the deposited data

How the results depend on the processing

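The 6 calls among the lactate genes (5 higher, 1 lower) were all kept with 11 of 13 alternatives. The other 2 left a called gene out of the fit: the filter at 5 TPM removed SLC16A7, and leaving out the 1% of genes with the largest mean removed LDHA, so each kept 5 calls. The number of lactate genes called lower was 2 in place of 1, through SLC16A1, with the filter at 5 TPM (adjusted p = 0.0459), limma-voom on rebuilt reads (adjusted p = 0.0460), median-ratio scaling (adjusted p = 0.0135) and leaving out the 1% of genes with the largest mean (adjusted p = 0.0305). It was 1 to 2 when each library was left out, with 2 only without control replicate 1 (adjusted p = 0.0329); the cause was not tested. Over all 8 tested genes and all settings no direction of a call reversed.

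Same-numbered libraries did not deviate together (r = -0.0583, -0.0017 and -0.0163). With 3 libraries per group, this cannot decide whether the numbers pair the samples. With a replicate block, 3433 genes were called higher and 3423 lower, against 3852 and 3963 without it, and the 6 calls among the lactate genes were kept. Paired by number, the sign-flip test of the LDHA share difference (-0.591 percentage points) gave an exact p of 0.25, the smallest it allows. Leaving out libraries moved that difference between -0.706 and -0.532, and that of the SLC16A3 share between 6.91 and 9.40 percentage points. Depth limits EMB, and HCAR1 in the resistant libraries.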
